A study of Mus musculus with 12 samples.

Results

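The surfactant proteins and lamellar body genes of the mouse lung are described here in bulk RNA sequencing of whole lungs. The set was chosen by gene name, from what the proteins are known to do, and with earlier results of these data known. It holds 10 of the 16152 genes in the count table: *Sftpa1*, *Sftpb*, *Sftpc*, *Sftpd*, *Abca3*, *Lamp3*, *Lpcat1*, *Napsa*, *Slc34a2* and *Ctsh*. All 10 passed the filter on low counts that left 15994 genes for testing. The lungs came from C57BL/6 mice of both sexes with no treatment or altered allele in the labels, collected at embryonic days E15.5 and E18.5 and postnatal days P5 and P8, with 3 replicates at each of the 4 time-points. Each time-point was sampled from 1 litter, so litter and time-point cannot be told apart, and p-values measure the spread between littermates. The reads counted on genes numbered 41337443 to 53901957 in the 12 libraries. Thymus genes were high in E15.5 replicate 2 and in P8 replicates 1 and 2, and heart and muscle genes were high in E15.5 replicates 1 and 2 (summed 1208 and 1528 CPM against 66 CPM in replicate 3) and in P8 replicates 1 and 2 (505 and 517 CPM against 152 CPM in replicate 3). The alternative without the 3 libraries highest in thymus genes left the call of each of the 10 genes the same in the 6 pairwise comparisons.

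Pulmonary surfactant is a film of phospholipid and protein that lowers surface tension in the alveoli and keeps them from collapsing at the end of expiration. It is made by alveolar type 2 (AT2) cells, which pack lipid together with the hydrophobic surfactant proteins B and C into lamellar bodies, lysosome-related organelles that are secreted into the airspace. Surfactant proteins A and D are collectins, secreted lectins that bind microbes. In whole lung RNA, fewer AT2 cells and less RNA of a gene per AT2 cell cannot be told apart.

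Levels are given in CPM, the reads of a gene divided by the mapped reads of the library and scaled by 1e6, as mean ± SD over the 3 replicates of a time-point. A call needed an absolute log2 fold change above 1 together with an FDR under 0.05, with p-values from edgeR's quasi-likelihood test in 1 fit of the 12 libraries adjusted by Benjamini and Hochberg's method over all genes tested. All 10 genes were called higher at P5 than at E18.5, where 17.5% of all genes tested were. Their rises ran from 2.80-fold for *Ctsh* to 236-fold for *Sftpd*. From E15.5 to E18.5, 8 of the 10 were called higher, where 1.59% of all genes were. From P5 to P8 none of the 10 was called.

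**Figure D1:**
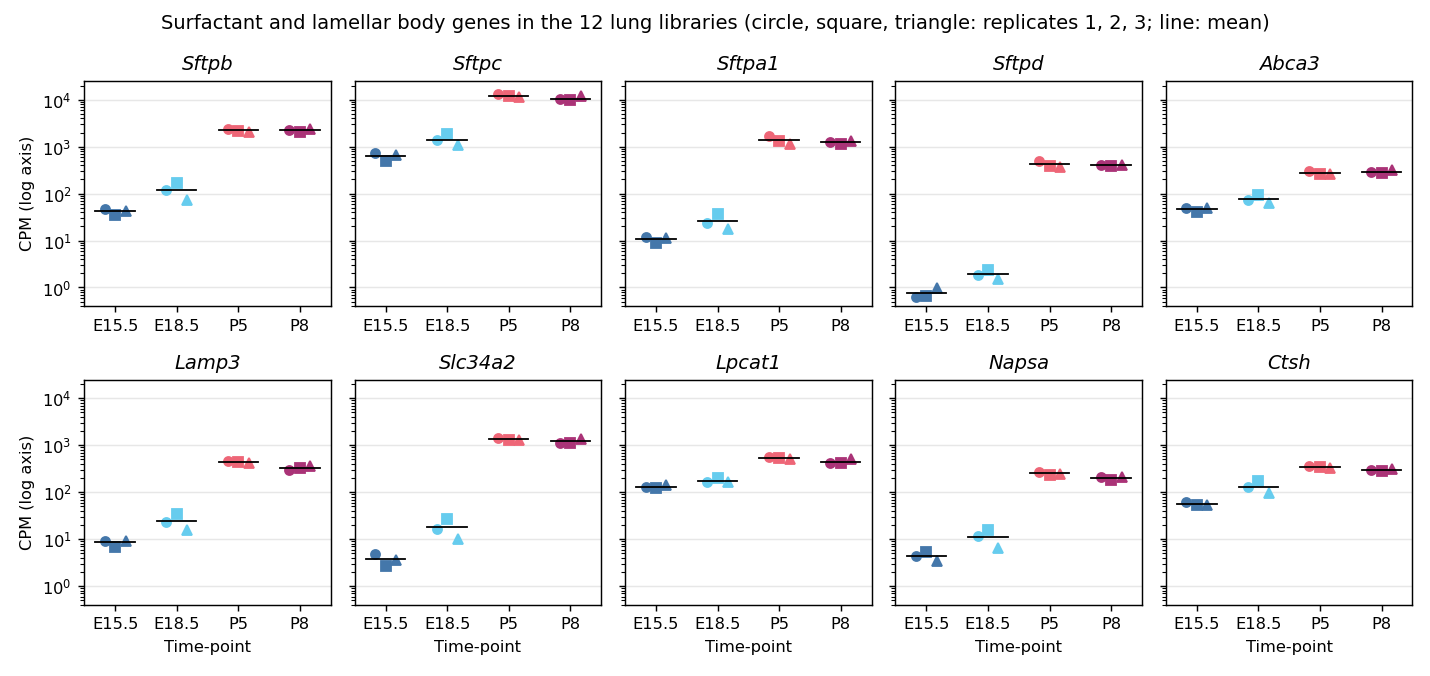
CPM (log axis) of each of the 10 genes in each of the 12 libraries, by time-point. Circles, squares and triangles are replicates 1, 2 and 3, and lines are means. In every gene shown the 6 postnatal libraries lay above the 6 embryonic ones, as in 26.6% of all genes tested.

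The promoters of 3 of the genes are shown, and these windows held the most motif matches of the 6 searched. The other 3 genes searched, whose windows held 1 match or none, had the rise across birth too. RefSeq promoter windows, here the 250 bases before the annotated start on the gene's strand, were matched for 6 of the 10 genes (*Sftpa1*, *Sftpb*, *Abca3*, *Lamp3*, *Lpcat1* and *Slc34a2*, build GRCm38.p6), and *Sftpc*, *Sftpd*, *Napsa* and *Ctsh* had no entry. Each window was searched on both strands for 4 short motifs of factors known to act in the lung epithelium or of the core promoter: GCNCTNNAG for NKX2-1, TGTTTNC for forkhead (FOX) factors, TTNCNNAA for C/EBP factors and TATAAA for the TATA box. Of 32817 RefSeq windows of the same length, 14.2% held the NKX2-1 letters, 17.8% the FOX letters, 36.8% the C/EBP letters and 12.4% the TATA letters, so single matches are frequent. Capitals mark the matches in the sequences, which run 5′ to 3′ on the strand of the gene.
Sftpb, chr6:72304360-72304609, plus strand: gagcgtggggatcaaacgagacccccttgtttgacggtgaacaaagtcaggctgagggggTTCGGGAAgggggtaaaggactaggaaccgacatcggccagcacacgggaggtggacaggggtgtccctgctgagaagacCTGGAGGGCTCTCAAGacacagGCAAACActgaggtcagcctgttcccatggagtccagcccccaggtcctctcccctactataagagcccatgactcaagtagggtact
Sftpa1, chr14:41131538-41131787, plus strand: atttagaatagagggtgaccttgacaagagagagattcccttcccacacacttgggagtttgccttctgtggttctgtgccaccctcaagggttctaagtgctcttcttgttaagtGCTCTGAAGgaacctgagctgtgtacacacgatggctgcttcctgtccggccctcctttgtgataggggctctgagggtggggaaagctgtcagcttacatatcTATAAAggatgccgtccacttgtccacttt
Lamp3, chr16:19706366-19706615, minus strand: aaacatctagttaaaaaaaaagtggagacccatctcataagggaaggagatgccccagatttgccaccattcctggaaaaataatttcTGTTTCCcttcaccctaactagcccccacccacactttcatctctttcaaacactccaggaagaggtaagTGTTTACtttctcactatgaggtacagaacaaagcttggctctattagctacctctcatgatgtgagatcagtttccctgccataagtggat

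The *Sftpb* window held 2 NKX2-1 matches, CTGGAGGGC from -110 to -102 (on the other strand) and GCTCTCAAG from -103 to -95, which share 2 bases. It also held a FOX match from -88 to -82 and a C/EBP match from -190 to -183, both on the other strand. Positions are counted from the RefSeq start. The *Sftpa1* window held 1 NKX2-1 match from -134 to -126 and a TATA match from -30 to -25. The *Lamp3* window held 2 FOX matches, from -162 to -156 and from -92 to -86. Of the other 3 windows, that of *Slc34a2* held 1 C/EBP match from -48 to -41, and those of *Abca3* and *Lpcat1* held none of these letters. The *Slc34a2* window (chr5:53049103-53049352) lies inside the annotated gene (chr5:53038081-53071664), so it precedes an internal start and not the first base of the gene. No binding was measured in these libraries, and the matches are descriptions of the letters alone. The RNAs of the factors themselves are given for the interval from E18.5 to P5. *Nkx2-1*, which drives surfactant gene expression in lung epithelium, was at 216 ± 23.0 CPM before birth and 140.3 ± 4.54 after it (SD, n = 3; log2 fold change -0.54, standard error 0.09, edgeR FDR = 1.4e-04). *Foxa2*, a forkhead factor of the same epithelium, was at 52.0 ± 1.18 and 33.9 ± 1.40 CPM, a log2 difference of -0.53 (standard error 0.07, edgeR FDR = 1.6e-05). Both passed the FDR threshold but were under the fold cutoff. *Foxa1*, a related forkhead factor, was called lower (log2 difference -1.28). *Cebpa*, a C/EBP factor, was called higher across the same interval, and its mean went from 50.5 ± 7.36 to 132 ± 9.77 CPM, a log2 rise of 1.47 (standard error 0.14, edgeR FDR = 1.6e-06).

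*Sftpc* (ENSMUSG00000022097.3; chr14:70520949-70524081, minus strand, GRCm38) encodes surfactant protein C, a small hydrophobic peptide whose precursor is cleaved on its way to the lamellar body. It was the most abundant of the 10 genes in every library. Its CPM was 736, 505 and 665 in replicates 1, 2 and 3 at E15.5, and 1353, 1819 and 1079 at E18.5. At P5 it was 13186, 12039 and 11618, and at P8 it was 10419, 9644 and 11719. The 4 groups did not overlap except P5 and P8, where the highest P8 library lay above the lowest P5 library. *Sftpc* and *Sftpd* are the AT2 markers that the study itself showed for these libraries, so their direction here is not independent evidence. From E15.5 to E18.5 *Sftpc* rose 2.24-fold (log2 fold change 1.16, standard error 0.18, edgeR FDR = 0.0018). Across birth it rose 9.22-fold (log2 fold change 3.20, standard error 0.19, edgeR FDR = 2.7e-08).

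*Sftpb* (ENSMUSG00000056370.15; chr6:72304610-72314371, plus strand) encodes surfactant protein B, a hydrophobic protein without which lamellar bodies do not form properly and newborns die of respiratory failure. Its CPM was 47.5, 35.4 and 42.0 at E15.5, 117, 166 and 73.2 at E18.5, 2423, 2168 and 2089.9 at P5 and 2209, 2051 and 2423 at P8. Each E18.5 library lay above each E15.5 library and far below each postnatal one, while the P5 and P8 libraries were intermingled. *Sftpb* rose 2.87-fold before birth (log2 fold change 1.52, standard error 0.23, edgeR FDR = 0.0016). Across birth the rise was 19.9-fold (log2 fold change 4.32, standard error 0.25, edgeR FDR = 2.3e-08).

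The collectin genes *Sftpa1* (ENSMUSG00000021789.14; chr14:41131782-41136452, plus strand) and *Sftpd* (ENSMUSG00000021795.9; chr14:41172214-41185149, minus strand) lie 35.8 kb apart on chromosome 14. The CPM of *Sftpa1* was 11.8, 9.02 and 11.2 at E15.5 and 24.2, 36.3 and 17.4 at E18.5. It was 1658, 1348 and 1116 at P5 and 1252, 1166 and 1333 at P8. The rise from E18.5 to P5 was 56.4-fold (log2 fold change 5.82, standard error 0.27, edgeR FDR = 4.5e-09). The P8 libraries lay within the range of the P5 libraries. The CPM of *Sftpd* was 0.629, 0.649 and 0.983 at E15.5 and 1.89, 2.32 and 1.48 at E18.5. It was 501, 396 and 362 at P5 and 416, 396 and 407 at P8. *Sftpd* was thus close to the filter of 1 CPM in the embryonic lungs and above 300 CPM in all 6 postnatal libraries. Its rise from E18.5 to P5, 236-fold, was the 33rd highest log2 fold change of the 15994 genes tested (log2 fold change 7.88, standard error 0.21, edgeR FDR = 1.2e-10). Before birth both collectins were called higher, *Sftpa1* by 1.29 on the log2 scale (edgeR FDR = 0.0035) and *Sftpd* by 1.34 (edgeR FDR = 0.0034).

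The balance among the 4 surfactant proteins was computed per kilobase of the principal transcript, as each gene's percent of the summed CPM per kilobase of *Sftpa1*, *Sftpb*, *Sftpc* and *Sftpd* in a library. *Sftpc* made up 96.1 ± 0.20% of it at E15.5 and 95.3 ± 0.645% at E18.5, then 87.1 ± 0.555% at P5 and 85.6 ± 0.362% at P8 (SD, n = 3). *Sftpb* made up 3.37 ± 0.179%, 4.15 ± 0.604%, 8.39 ± 0.0537% and 9.57 ± 0.107% at the 4 time-points. *Sftpd* made up 0.0720 ± 0.0191% and 0.0798 ± 0.00419% in the embryonic lungs and 1.84 ± 0.180% and 2.05 ± 0.172% in the postnatal ones. The collectins together therefore took a larger share after birth, and the embryonic and postnatal ranges of these shares did not overlap for any of the 4 genes. These shares were not tested.

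Of the genes of the lamellar body membrane, *Abca3* (ENSMUSG00000024130.15; chr17:24351950-24410201, plus strand) encodes the transporter that moves phospholipid into the organelle. Its CPM was 50.4, 41.3 and 49.1 at E15.5, 73.4, 91.4 and 64.5 at E18.5, 300.4, 267 and 256 at P5 and 283, 277 and 312 at P8. The E15.5 and E18.5 libraries did not overlap, but the difference of 0.71 on the log2 scale was under the fold cutoff (standard error 0.12, edgeR FDR = 0.0030). From E18.5 to P5 *Abca3* rose 3.82-fold (log2 fold change 1.93, standard error 0.13, edgeR FDR = 5.3e-08). Exons of the opposite-strand gene *D330041H03Rik* overlap *Abca3*, and whether the counting used strand is not stated in the sources used here. The overlapping gene had a mean of 0.752 CPM in the E18.5 libraries and 0.925 CPM in the P5 libraries. What the overlap did to the counts of *Abca3* was not tested.

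*Lamp3* (ENSMUSG00000041247.7; chr16:19653378-19706375, minus strand), also known as DC-LAMP, encodes a glycoprotein of the lamellar body membrane. Its CPM was 9.31, 6.88 and 9.32 at E15.5, 23.4, 33.8 and 15.4 at E18.5, 472, 433 and 426 at P5 and 304, 320.4 and 369 at P8. It rose 2.86-fold before birth (log2 fold change 1.51, standard error 0.22, edgeR FDR = 0.0016). Across birth the rise was 19.5-fold (log2 fold change 4.28, standard error 0.24, edgeR FDR = 1.5e-08). All P8 libraries lay below all P5 libraries.

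*Slc34a2* (ENSMUSG00000029188.14; chr5:53038081-53071664, plus strand) encodes NaPi-IIb, a sodium-dependent phosphate transporter of AT2 cells that takes up the phosphate left when surfactant phospholipid is broken down. Its CPM was 4.89, 2.71 and 3.54 at E15.5 and 16.3, 27.1 and 9.87 at E18.5. At P5 it was 1460.0, 1323 and 1300.1, and at P8 it was 1135, 1119.8 and 1362. *Slc34a2* had the largest rise of the 10 before birth, 4.77-fold (log2 fold change 2.25, standard error 0.31, edgeR FDR = 0.0011). Across birth it rose 81.6-fold (log2 fold change 6.35, standard error 0.34, edgeR FDR = 1.2e-08). The E18.5 libraries of this gene were also the most spread of the set, with an SD of 49.1% of the mean.

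*Lpcat1* (ENSMUSG00000021608.15; chr13:73467197-73516422, plus strand) encodes the lysophosphatidylcholine acyltransferase that remodels phosphatidylcholine into the dipalmitoyl form found in surfactant. Its CPM was 132, 123 and 141 at E15.5, 164, 202 and 162 at E18.5, 574, 525 and 513 at P5 and 418, 426 and 503 at P8. Its difference before birth was the smallest of the set, 0.42 on the log2 scale (standard error 0.10, edgeR FDR = 0.014), under the fold cutoff, and the FDR was 0.057 at its highest with single libraries left out. From E18.5 to P5 *Lpcat1* rose 3.24-fold (log2 fold change 1.70, standard error 0.10, edgeR FDR = 3.2e-08).

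The remaining genes encode proteases that process the surfactant protein precursors. *Napsa* (ENSMUSG00000002204.9; chr7:44572380-44586862, plus strand) encodes napsin A, an aspartic protease that takes part in the maturation of surfactant protein B. Its CPM was 4.28, 5.37 and 3.36 at E15.5, 11.5, 15.6 and 6.63 at E18.5, 267, 237 and 250.2 at P5 and 211, 186 and 215 at P8. It rose 2.60-fold before birth (log2 fold change 1.38, standard error 0.25, edgeR FDR = 0.0037). Across birth the rise was 23.8-fold (log2 fold change 4.57, standard error 0.26, edgeR FDR = 1.6e-08). Exons of an opposite-strand gene, *Gm15396*, overlap *Napsa*.

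*Ctsh* (ENSMUSG00000032359.14; chr9:90054152-90076089, plus strand) encodes cathepsin H, a lysosomal cysteine protease that trims the precursors of surfactant proteins B and C and is also made by many other cells. Its CPM was 61.2, 53.0 and 54.4 at E15.5, 127, 176 and 94.1 at E18.5, 368, 344 and 334 at P5 and 291, 290.2 and 314 at P8. It rose 2.36-fold before birth (log2 fold change 1.24, standard error 0.17, edgeR FDR = 0.0011). Across birth the rise was 2.80-fold (log2 fold change 1.49, standard error 0.17, edgeR FDR = 5.4e-06). *Ctsh* thus had the smallest rise of the set from E18.5 to P5, although its groups still did not overlap.

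**Figure D2:**
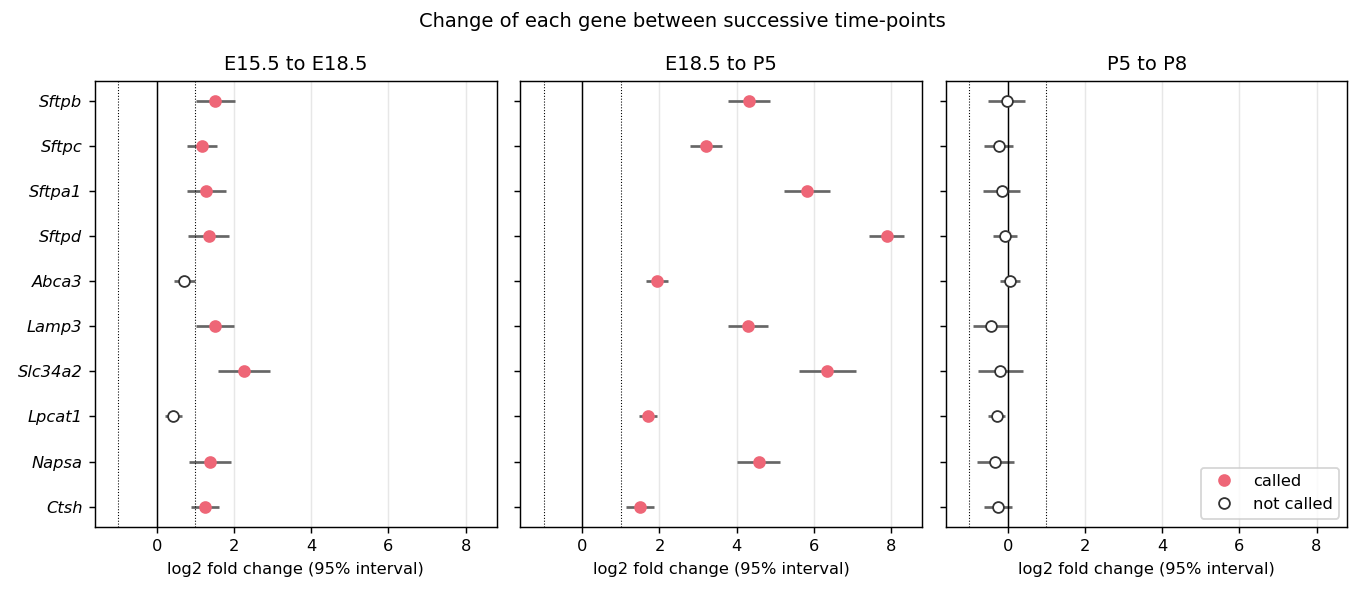
Log2 fold change of each gene between successive time-points, with its 95% interval from the edgeR fit of 12 libraries. Filled points were called (log2 fold change past the dotted lines at 1 and -1 and FDR under 0.05) and open points were not. The E18.5 to P5 values run from 1.49 (*Ctsh*) to 7.88 (*Sftpd*), and the P5 to P8 values lie near 0.

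The genes differed in how far they stood below their own P8 level before birth. At E18.5 *Sftpd* stood at 0.466% of its P8 mean, *Slc34a2* at 1.47% and *Sftpa1* at 2.08%. *Sftpb*, *Napsa* and *Lamp3* followed at 5.33%, 5.51% and 7.32%, and *Sftpc* at 13.4%. *Abca3*, *Lpcat1* and *Ctsh* were already at 26.3%, 39.3% and 44.3% of their P8 means. The collectins and the phosphate transporter were thus the lowest relative to P8, and the lipid transporter, the acyltransferase and cathepsin H the highest. At P5 the means of the 10 genes lay between 94.3% (*Abca3*) and 134% (*Lamp3*) of P8.

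**Figure D3:**
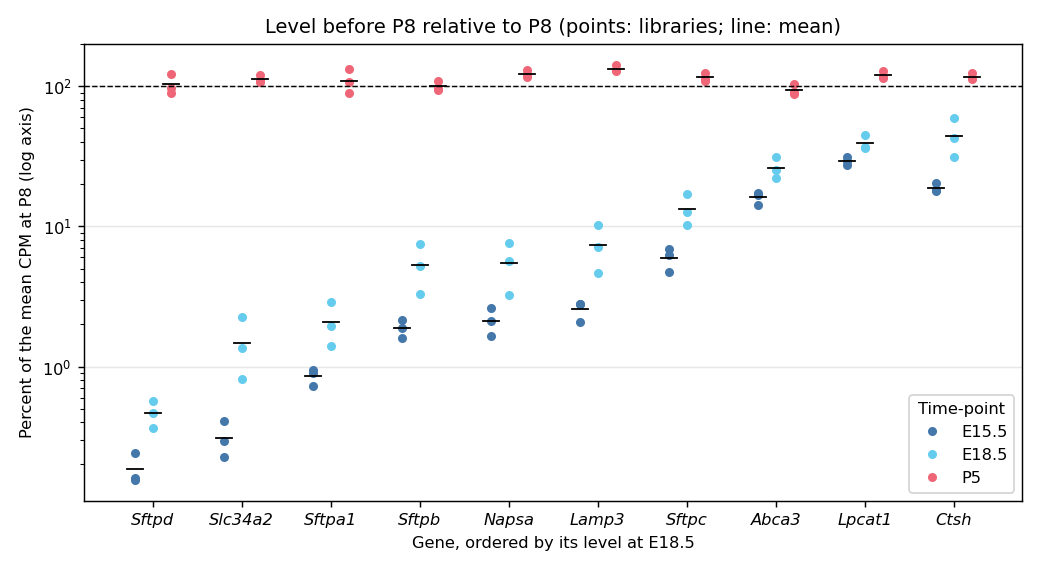
Level of each gene at E15.5, E18.5 and P5 as a percent of its own mean CPM at P8 (log axis, dashed line at 100%). Points are libraries, lines are means, and genes are ordered by their level at E18.5, from 0.466% for *Sftpd* to 44.3% for *Ctsh*.

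Levels between genes were compared as CPM per kilobase of the principal transcript. *Sftpc* was first at every time-point, at 802 ± 149.8 CPM per kilobase at E15.5 and 13376 ± 1324 at P8 (SD, n = 3). At E15.5 it was followed by *Lpcat1* at 35.9 ± 2.58 and *Ctsh* at 34.7 ± 2.73, whose ranges overlapped, and by *Sftpb* at 27.9 ± 4.08, below both. *Abca3* (7.25 ± 0.764) came next, then *Sftpa1*, *Napsa* and *Lamp3* with overlapping neighbours (3.74 ± 0.513, 2.78 ± 0.643 and 2.53 ± 0.419), and last *Slc34a2* (0.889 ± 0.263) and *Sftpd* (0.591 ± 0.156), which also overlapped. At E18.5 the ranges of *Ctsh* (81.8 ± 25.4) and *Sftpb* (79.7 ± 31.2) overlapped, as did those of *Sftpb* and *Lpcat1* (47.9 ± 6.14). *Abca3*, *Sftpa1*, *Lamp3*, *Napsa* and *Slc34a2* followed, from 11.8 ± 2.11 down to 4.25 ± 2.09, each overlapping its neighbour, and *Sftpd* was last at 1.49 ± 0.327.

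At P8 the order was *Sftpc*, *Sftpb* (1495 ± 125 CPM per kilobase), *Sftpa1* (438 ± 29.2), *Sftpd* (319 ± 7.98), *Slc34a2* (289 ± 32.5), *Ctsh* (185 ± 8.29), *Napsa* (131 ± 9.88), *Lpcat1* (122 ± 12.7), *Lamp3* (98.7 ± 9.97) and *Abca3* (44.9 ± 2.91). Of these neighbours *Sftpd* and *Slc34a2* overlapped, as did *Napsa* and *Lpcat1*, and the others were apart. The order at P5 was the same, with the further overlaps of *Sftpa1* with *Sftpd* and *Lpcat1* with *Lamp3*. *Sftpd* and *Slc34a2* thus moved from the last places before birth to the places after *Sftpa1*, and *Abca3* from the middle to the last place. The order also depended on the length used. Over the length of all exons of a gene in place of the principal transcript, *Ctsh* took the ninth place and *Lamp3* the sixth at P5 and P8. The first 3 places at these time-points were the same. In the embryonic lungs, places changed over that length too. At E18.5 *Sftpb* ranked 2, *Lpcat1* 3, *Ctsh* 4, *Sftpa1* 5 and *Abca3* 6. At E15.5 *Sftpb* ranked 3 and *Ctsh* 4, and *Lamp3* ranked 7 and *Napsa* 8.

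The 10 genes together took 0.108 ± 0.0164% of the reads counted on genes at E15.5 and 0.229 ± 0.0605% at E18.5, and 2.26 ± 0.195% at P5 and 2.0 ± 0.176% at P8 (SD, n = 3). *Sftpc* alone gave 67.3 ± 2.53%, 70.8 ± 0.0254%, 63.0 ± 0.731% and 61.4 ± 0.557% of the reads of the 10 genes at the 4 time-points.

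From E15.5 to E18.5 the question was whether these genes already differed before birth. All 10 passed the FDR threshold with higher values at E18.5, where 11.6% of all genes tested did, and in each of the 10 every E18.5 library lay above every E15.5 library, as in 18.3% of all genes tested. Their median log2 fold change was 1.31, beside -0.01 over all genes tested. *Abca3* and *Lpcat1* were the genes under the fold cutoff. One library decided some of these calls: without E18.5 replicate 2, 5 of the 10 were called, as *Sftpa1* (0.97), *Sftpc* (0.95) and *Ctsh* (0.99) came just under a log2 fold change of 1.

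The E18.5 libraries stood in the same order for every gene of the set. Replicate 2 was highest, replicate 1 in the middle and replicate 3 lowest in 10 of 10 genes, an order that 13.9% of the 16152 genes had. Among the lists of other genes, 14 of 22 other AT2 genes and 5 of 12 AT1 markers had this order, and 7 of 30 genes of phospholipid synthesis did. So did 8 of 22 general epithelial genes, 3 of 9 airway markers and 8 of 28 regulators of surfactant genes. It was seen in 4 of 32 genes of lamellar body trafficking and 3 of 17 macrophage and leukocyte markers. The highest E18.5 library was between 1.25 times (*Lpcat1*) and 2.75 times (*Slc34a2*) the lowest, with a median of 1.98 times over the set. At E18.5 the SD was 12.8% to 49.1% of the mean, beside 5.13% to 19.8% at P5 and 2.5% to 11.2% at P8. At P5 replicate 1 was highest in 10 of 10 genes, and at P8 replicate 3 was highest in 9 of 10, beside 19.1% and 42.6% of the 16152 genes. In P5 replicate 1 the summed erythroid markers (19668 CPM against 11991 and 13169) and the summed macrophage and leukocyte markers (463 CPM against 351 and 351) were highest too. What sets these libraries apart was not tested.

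**Figure D4:**
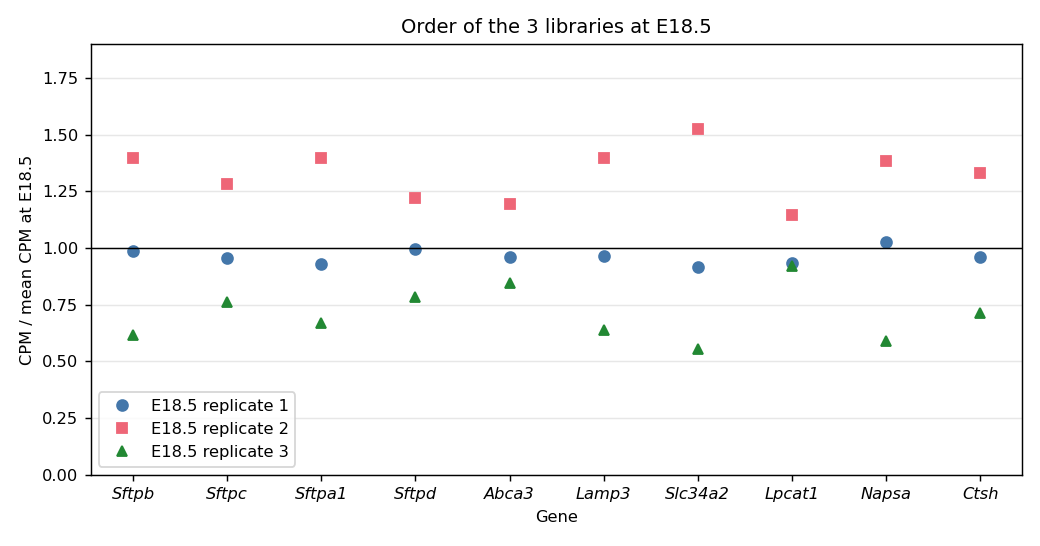
CPM of each gene in each E18.5 library divided by its mean over the 3 E18.5 libraries. The markers are the 3 replicates, and replicate 2 lies highest and replicate 3 lowest in all 10 genes, with the widest spread for *Slc34a2* and the narrowest for *Lpcat1*.

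From E18.5 to P5, the interval that holds birth, the median log2 fold change of the 10 genes was 4.30, beside -0.002 over all genes tested. The 95% intervals of the 10 log2 fold changes lay between 1.12 and 8.33, and with single libraries left out the 10 genes remained called. The values formed no single step: the 95% interval of *Sftpd* (7.43 to 8.33) lay above those of the other 9, those of *Slc34a2* (5.61 to 7.09) and *Sftpa1* (5.23 to 6.41) overlapped, and those of *Abca3* (1.66 to 2.21), *Lpcat1* (1.47 to 1.92) and *Ctsh* (1.12 to 1.85) overlapped at the low end. Between them were *Napsa* (4.02 to 5.13), *Sftpb* (3.77 to 4.87) and *Lamp3* (3.77 to 4.80), whose intervals were nearly the same, and *Sftpc* (2.79 to 3.62).

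Whether the rise across birth was larger than the rise before it was tested as the difference of the 2 steps on the log2 scale in the same fit. It was larger in 9 of the 10 genes, where 23.6% of all genes tested had a higher later step at an FDR under 0.05. The difference was 6.54 for *Sftpd* (standard error 0.39, edgeR FDR = 4.5e-07), 4.53 for *Sftpa1* (standard error 0.43, edgeR FDR = 1.0e-05) and 4.10 for *Slc34a2* (standard error 0.54, edgeR FDR = 8.2e-05). In *Napsa*, *Sftpb*, *Lamp3* and *Sftpc* it was between 2.04 and 3.19, and in *Lpcat1* and *Abca3* it was 1.28 and 1.22. In *Ctsh* the difference was 0.25 (95% interval -0.38 to 0.87, edgeR FDR = 0.50), a value that 2 libraries moved: it was 0.75 without E18.5 replicate 2 (95% interval 0.27 to 1.24, edgeR FDR = 0.018), which makes 10 of 10 genes, and -0.15 without E18.5 replicate 3 (edgeR FDR = 0.60). The intervals between time-points are of unequal length and the comparisons share the E18.5 libraries, so these are differences between steps and not between rates.

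From P5 to P8 none of the 10 genes was called in either direction by edgeR, where 2.88% of all genes were called higher and 0.0875% lower, and none passed an FDR of 0.05, which 8.21% of all genes did with lower values. Their log2 fold changes lay between -0.44 (*Lamp3*) and 0.06 (*Abca3*), with a median of -0.21, beside -0.001 over all genes tested. The 95% intervals reached from -0.89 to 0.46, so a change by a factor of 2 lay outside the interval of each gene. In *Lamp3*, *Lpcat1*, *Napsa* and *Ctsh* every P8 library lay below every P5 library, which 16.3% of all genes tested did. *Lpcat1* had the lowest FDR, 0.075 in the edgeR fit (log2 fold change -0.28, 95% interval -0.50 to -0.06), and it was 0.045 with DESeq2 and 0.028 with edgeR without P8 replicate 3. *Lamp3* (edgeR FDR = 0.15) reached 0.016, and *Napsa* (edgeR FDR = 0.33) 0.047, when only the libraries of P5 and P8 were fitted, and *Lamp3* reached 0.046 without E18.5 replicate 3. At an unadjusted edgeR p under 0.05 there was 1 gene, *Lpcat1*. The step from P5 to P8 was lower than the step across birth in 10 of 10 genes, where 26.4% of all genes had a lower later step at an FDR under 0.05.

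Over the longer intervals all 10 genes were called higher. The comparisons share libraries with those above and are given for their size. Of all genes tested, 19.5% were called higher at P5 than at E15.5 and 20.9% at P8 than at E15.5. Between E18.5 and P8 the share was 19.6%. From E15.5 to P8 the log2 fold changes ran from 1.84 for *Lpcat1* (standard error 0.10, edgeR FDR = 1.0e-08) to 9.16 for *Sftpd* (standard error 0.22, edgeR FDR = 5.1e-11), 3.58-fold and 572-fold. The smallest values after that of *Lpcat1* were those of *Ctsh* (2.48) and *Abca3* (2.71), and the largest after that of *Sftpd* were those of *Slc34a2* (8.41) and *Sftpa1* (6.95).

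Lists of other genes of the surfactant system were set beside the 10. Surfactant phospholipid is made by enzymes of fatty acid, glycerolipid and phosphatidylcholine synthesis that most cells also use. Of 30 such genes from E18.5 to P5, 6 were called higher and 1 lower, with a median log2 fold change of 0.35. Over all genes tested, 17.5% were called higher and 9.34% lower, so the count called higher was near the background. *Scd1*, a stearoyl-CoA desaturase, went from 17.6 ± 0.679 to 545 ± 84.8 CPM, a log2 rise of 5.05 (standard error 0.15, edgeR FDR = 1.9e-10), while *Scd2*, another desaturase, was at 1099.97 ± 23.4 and 662 ± 15.1 CPM (log2 fold change -0.64). *Pla2g1b*, a secreted phospholipase, rose from 0.534 ± 0.212 to 11.1 ± 1.53 CPM (log2 fold change 4.46). *Elovl6*, which elongates palmitate, was the gene called lower, from 45.3 ± 4.08 to 11.7 ± 1.10 CPM (log2 fold change -1.87). None of the 30 was called from E15.5 to E18.5 or from P5 to P8 by edgeR. At FDR under 0.05 alone 5 were higher and 1 lower over the first of these intervals and 8 higher and 3 lower over the second. Of all genes tested, 11.6% were higher over the first and 8.21% lower over the second at that threshold. The shares in the other direction are not given. The 1 lower over the first and the 8 higher over the second thus have no background beside them.

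Of 31 tested genes of lamellar body trafficking, secretion and surfactant clearance, 8 were called higher and none lower from E18.5 to P5. Their median log2 fold change was 0.40, and the shares of all genes called were the same 17.5% and 9.34%. At FDR under 0.05 alone 17 were higher and 4 lower, and the share of all genes at that threshold is not given. *Adgrf5*, a receptor that restrains surfactant levels, went from 67.1 ± 2.42 to 471 ± 22.6 CPM, a log2 rise of 2.90 (standard error 0.13, edgeR FDR = 3.9e-09). *Csf2rb* encodes a subunit of the receptor through which macrophages respond to GM-CSF and clear surfactant. This gene and its relative *Csf2rb2* rose by 2.68 and 2.92 on the log2 scale. Their sequences are similar enough that reads may be split between them. The general lysosomal membrane genes *Lamp1* and *Lamp2*, relatives of *Lamp3*, had log2 fold changes of 0.94 and 0.52 and were not called.

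Of 27 tested regulators of surfactant genes, 2 were called higher and 3 lower from E18.5 to P5, with a median of -0.14. Over all genes tested, 17.5% were called higher and 9.34% lower, so the count called lower was near the background. The genes called higher were *Cebpa*, given above, and *Tfcp2l1*, an epithelial transcription factor, from 7.41 ± 1.28 to 33.6 ± 4.85 CPM (log2 fold change 2.27). *Foxp2*, a forkhead factor of the distal lung tip, was called lower, at 128 ± 9.34 CPM before birth and 19.6 ± 0.743 after it, a log2 difference of -2.63 (standard error 0.11, edgeR FDR = 1.6e-09), as were *Erbb4*, a neuregulin receptor (2.66 ± 0.395 to 0.408 ± 0.137 CPM, log2 fold change -2.63), and *Foxa1* (73.9 ± 1.56 to 28.7 ± 2.16 CPM, log2 fold change -1.28), which is named here after its values were seen. *Etv5*, a transcription factor that AT2 cells need, and *Nfib*, which acts in lung maturation, were the most abundant of the list and had log2 fold changes of -0.87 and -0.14.

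Of 22 other genes known from AT2 cells, 18 were called higher and none lower from E18.5 to P5, with a median of 3.07. The shares of all genes tested were 17.5% and 9.34%. At FDR under 0.05 alone 21 were higher and 1 lower, with no share of all genes given at that threshold. *Cxcl15*, a chemokine of lung epithelium, rose from 27.4 ± 4.98 to 1199 ± 79.2 CPM (log2 fold change 5.54), and *Chil1*, a chitinase-like protein, from 1.93 ± 0.522 to 371 ± 98.1 CPM (log2 fold change 7.69). *S100g*, a calcium-binding protein, and *Hc*, complement component 5, rose by 7.46 and 6.66 on the log2 scale. *Lyz2*, lysozyme, rose from 49.4 ± 5.03 to 2119 ± 316 CPM (log2 fold change 5.51). It is also abundant in macrophages and shares reads with its close copy *Lyz1*, so its value is uncertain. From E15.5 to E18.5, 5 of the 22 were called higher, where 1.59% of all genes tested were, with a median of 0.42. From P5 to P8 none of the 22 was called.

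**Figure D5:**
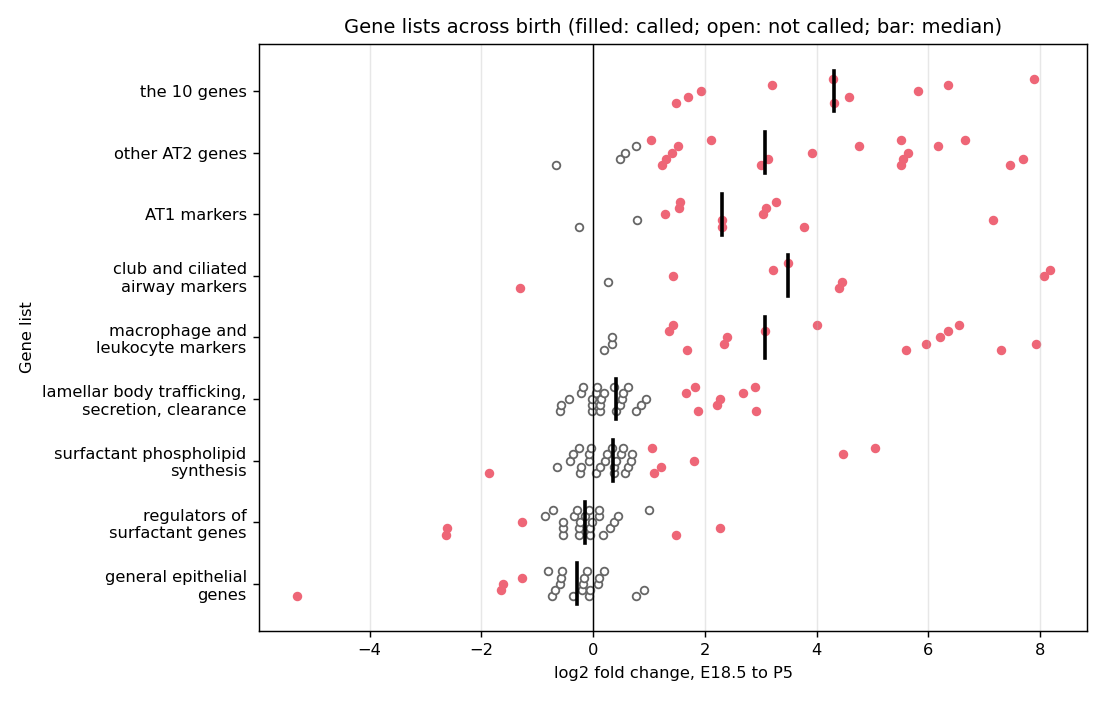
Change across birth (P5 against E18.5, log2 scale) of the genes of each list as points, filled where called, with the median of each list as a bar. The 10 genes have a median of 4.30, other AT2 genes 3.07 and general epithelial genes -0.28.

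Markers of other cells in the lung moved over the same interval, in which 17.5% of all genes tested were called higher and 9.34% lower. General epithelial genes did not rise with the 10 genes: 0 of 22 were called higher and 4 lower by edgeR, with a median of -0.28. At FDR under 0.05 alone 3 were higher and 12 lower, and the share of all genes at that threshold is not given. Summed, these genes stood at 1665 to 1862 CPM at E18.5 and 1242 to 1347 CPM at P5. *Epcam*, the epithelial adhesion molecule, fell from 209 ± 4.75 CPM before birth to 63.8 ± 4.22 at P5 (log2 fold change -1.62, standard error 0.06, edgeR FDR = 1.0e-09), *Cldn6* fell by 5.30 on the log2 scale and *Cldn4* by 1.64, and *Cdh1*, E-cadherin, had a log2 fold change of -0.21 (edgeR FDR = 0.095). The keratin gene *Krt7* had one of 0.91 and was not called. Of 12 AT1 markers, 10 were called higher, with a median of 2.3, and at FDR under 0.05 alone 11 were higher and 1 lower. Their summed level was 1354 to 1657 CPM at E18.5 and 5491 to 5764 CPM at P5. *Ager* and *Aqp5*, of the thin cells that cover most of the alveolar surface, rose by 3.78 and 7.15 on the log2 scale, *Emp2* and *Clic5* rose by 3.04 and 3.28, and *Cav1*, which endothelium also expresses, had a log2 fold change of 0.79 and was not called. Of 9 markers of club and ciliated airway cells, 7 were called higher and 1 lower, with a median of 3.49. Their summed level went from between 280 and 349.9 CPM to between 4190.3 and 5215 CPM. *Scgb1a1*, the secretoglobin of club cells, rose from 13.1 ± 1.21 to 3572 ± 319 CPM. *Aldh1a7* was the marker called lower, from 182 ± 2.38 to 69.0 ± 4.06 CPM (log2 fold change -1.31). Club cells are also known to express *Sftpa1*, *Sftpb* and *Sftpd*. Of 17 macrophage and leukocyte markers, 14 were called higher, with a median of 3.07. Summed, they stood at 106 to 111 CPM at E18.5 and 351 to 463 CPM at P5. *Csf1r* and *Ptprc*, the most abundant of them, rose by 1.68 and 4.01 on the log2 scale. The part of these cells in the values of *Ctsh*, which macrophages also make, was not tested.

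Thymus markers summed to 95 to 109.8 CPM at E18.5 and 87.2 to 99.0 CPM at P5, and heart and skeletal muscle markers to 62.3 to 103 and 153 to 336 CPM. Of 11 tested thymus genes 4, and of 11 heart and muscle genes 5, were called higher over this interval. Of all genes tested, 17.5% were called higher and 9.34% lower over it. Of 10 tested erythroid genes 7 were called higher and 3, the embryonic globins *Hba-x*, *Hbb-y* and *Hbb-bh1*, lower, with summed levels of 4077 to 4786 CPM at E18.5 and 11991 to 19668 CPM at P5. Scaling computed without the 10 genes and the haemoglobin genes left the calls of the 10 the same.

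The profile of the set was the mean over the 10 genes of their standardized log2(CPM + 1) in each of the 12 libraries. It ran from -1.26 to -1.13 at E15.5, from -0.86 to -0.46 at E18.5, from 0.93 to 1.04 at P5 and from 0.84 to 0.95 at P8. Of the 11501 genes with a mean of at least 10 CPM at a time-point, the genes of the set themselves ranked 1 to 4 in Pearson correlation with it (*Slc34a2*, *Lamp3*, *Sftpb* and *Sftpc*, all above 0.999), then 10 (*Abca3*), 15 (*Sftpa1*), 20 (*Napsa*) and 54 (*Lpcat1*). *Sftpd* (r = 0.989, rank 207) and *Ctsh* (r = 0.973, rank 752) were the least like the rest. Each gene is itself a part of the profile. The 10 other genes most like it, over 12 libraries, were *Tnfsf10*, *Emp2*, *Clic5*, *Ager*, *Aqp1*, *Atp11a*, *Limch1*, *Ace*, *Cpm* and *Lgi3*, with r between 0.997 and 0.998. *Emp2*, *Clic5* and *Ager* are AT1 markers, *Ace* and *Aqp1* are known from endothelium, and *Lgi3* is from the list of other AT2 genes. *Tnfsf10*, first of them, was at 8.37 and 17 CPM in the embryonic lungs and 122 and 112 CPM in the postnatal ones, and *Emp2* at 80.1, 159, 1228 and 1030.3 CPM. With 2 embryonic and 2 postnatal time-points, a correlation of this kind is set mainly by the step at birth and carries no test here.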

How the data were processed

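RNA from whole lungs (TruSeq libraries, 101-nt paired-end reads) was aligned by the authors to mm10 with TopHat2 2.1.1 and Bowtie2 2.3.4 and counted on Gencode vM14 genes with HTSeq-count 0.10.0. The deposited counts hold 16152 genes, without normalization and without rows that name no gene. The deposited CPM divide each count by the total mapped reads (48436716 to 62279460 per library), and their steps gave whole reads for 100% of values, within 0.01 read. A table of splicing levels was not used here.

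Genes that reached 1 CPM in 3 or more libraries were tested on their counts with edgeR 4.0.16 (R 4.3.3; TMM, glmQLFit, glmQLFTest, time-point as the only term), as the study's cutoffs define a call. Standard errors are the log2 fold change divided by the square root of F. The code was tested on simulated counts. Gene positions and lengths are from GENCODE M21 and promoter windows from RefSeq, both on GRCm38 (mm10).

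The members and gene lists were chosen with earlier results of these data known. Of each list, the text names the 2 genes of highest mean CPM, the 3 of largest called change from E18.5 to P5 and those called against the list's median. Of marker lists, examples are given, with summed ranges for most. Alternatives used DESeq2 1.42.0, limma 3.58.1 on log2(CPM + 1), other scalings, no filter, fewer libraries and the recovered reads, the last added after seeing the data.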

Additional observations from a re-analysis of the deposited data

How the results depend on the processing

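Under 23 other settings, all 10 genes remained called higher from E18.5 to P5. Before birth, E18.5 against E15.5, the count was 8 in the main analysis and between 5 and 8 with single libraries left out, the lowest without E18.5 replicate 2, where *Sftpa1* (0.97), *Sftpc* (0.95) and *Ctsh* (0.99) were under a log2 fold change of 1. *Sftpd* was at 0.72 over that interval by limma on log2(CPM + 1), which understates changes of low genes. Of 220 values from P5 to P8 under other settings, 7 had the other sign, and none made a call. With FDR under 0.05 alone in place of both cutoffs, the lists from E18.5 to P5 gave 17 higher and 6 lower of 30 for phospholipid synthesis. The counts were 17 and 4 of 31 for lamellar body trafficking and 6 and 12 of 27 for regulators. They were 21 and 1 of 22 for other AT2 genes and 3 and 12 of 22 for general epithelial genes. The share of all genes at this threshold is not given for this interval, so these counts have no background beside them. The count of genes with a larger step across birth than before it was 9, and 10 without E18.5 replicate 2. With library size only, the median of all genes from E15.5 to P5 was -0.10.

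The replicate numbers did not pair the libraries: correlations between the deviations of same-numbered libraries reached down to -0.29, no comparison had every pair above 0.1, and in none did every library correlate best with its own number. With the replicate number as a block, 8 genes were called before birth (E18.5 against E15.5), 10 across it and 0 after it (P8 against P5), as without it. With 3 libraries of 1 litter per time-point, the spread between litters was not measured.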
